A study of Mus musculus with 75 samples.

Results

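D2 nuclei of the nucleus accumbens were compared after a first cocaine injection and after saline, in 18 of the 75 libraries of the series. The members were the 9 libraries of group D2_SC and the 9 libraries of group D2_SS, taken by line and treatment label and described across all genes. Mice of D2_SC were given saline on 10 consecutive days, spent 30 days undisturbed in the home cage, and then received cocaine at 20 mg/kg intraperitoneally. Mice of D2_SS had the same saline history and the same home-cage period and then received a saline challenge. Tissue was taken 1 h after the challenge in both groups. All mice of both groups were male and carried D2-Cre together with LSL-eGFP::L10a, a Cre-dependent fusion of green fluorescent protein with ribosomal protein L10a, and green nuclei were collected by fluorescence-activated nuclei sorting. Total RNA of the sorted nuclei was made into stranded libraries with a low-input kit. The values therefore refer to RNA of sorted nuclei and not of whole cells, and they include the even background estimated below.

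Medium spiny neurons are the output cells of the accumbens and fall into 2 main classes, marked by the D1 and by the D2 receptor for dopamine. Cocaine blocks the dopamine transporter and raises extracellular dopamine. The D1 receptor raises cyclic AMP, and its neurons are the ones best known for induction of immediate early genes such as Fos, while the D2 receptor couples to inhibition of adenylyl cyclase and its neurons express Adora2a, an adenosine receptor, and Penk, the precursor of the enkephalin peptides. Because the sort rests on Cre driven by Drd2, any other cell that expresses Drd2 may be included. Nothing in the labels says that a library is 1 animal, so p-values here measure the spread between libraries. In sorted bulk nuclei, fewer nuclei of a type and less RNA per nucleus cannot be told apart.

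The libraries differed within each group before any treatment effect was considered. Total counts had a lowest value of 2040625, a median of 16082851 and a highest value of 21805478 in the SC libraries, against 5331227, 14618555 and 17808952 in the SS libraries. SC replicates 1 and 2, the shallowest of the 18, failed a rule on depth, and no SS library failed it. Values given below without SC replicates 1 and 2 come from a fit that also leaves out the failing libraries of the other D2 groups. An even background, estimated from counts per base over 1435 olfactory and vomeronasal receptor genes that accumbens neurons are not known to use, amounted to 34.1% ± 19.9 of counts in SC libraries and 43.9% ± 17.1 in SS libraries (SD, n = 9 each; exact permutation test, two-sided, p = 0.28, and 0.514 after adjustment over 6 library measures). Within that spread the libraries formed separate sets. SC replicates 3, 4 and 7 had background shares of 8.81%, 10.8% and 10.5% and SS replicate 9 had 5.37%, while the other 14 libraries lay between 25.5% and 61.2%. The low-background set therefore held 3 SC libraries and 1 SS library, and results are given below with and without it. Drd2 was above Drd1 in all 18 libraries, and log2(Drd1/Drd2) was at most -2.94 in SC and -2.53 in SS libraries.

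**Figure D1:**
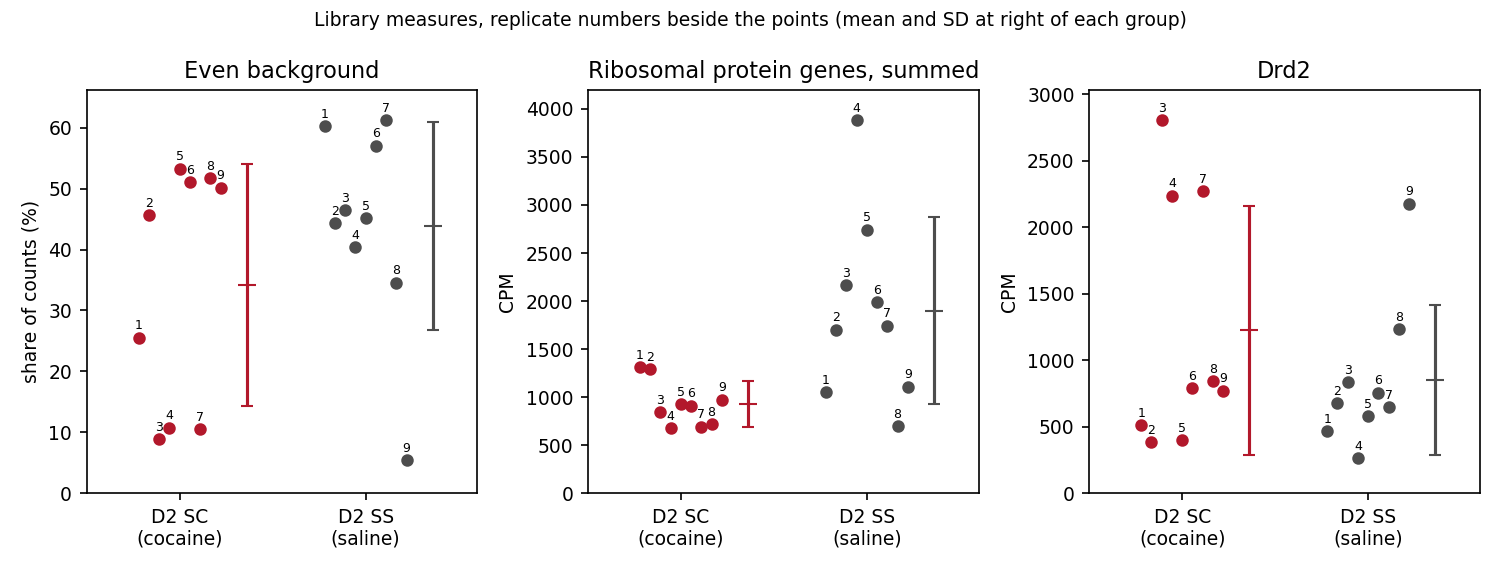
The even background as a percentage of counts, the summed CPM (counts scaled to a library total of 1000000) of ribosomal protein genes and the CPM of Drd2 are plotted for each of the 9 SC and 9 SS libraries, with replicate numbers beside the points and the group mean and SD at the right. SC replicates 3, 4 and 7 and SS replicate 9 sit at the bottom of the background panel and at the top of the Drd2 panel, and 6 SS libraries lie above all SC libraries in ribosomal protein CPM.

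No gene passed the main test of SC against SS. With edgeR's quasi-likelihood test on 36090 genes, fitted with the other D2 groups, 0 genes (0%) had a Benjamini-Hochberg adjusted p under 0.05, and DESeq2 gave 0 as well. At an unadjusted p under 0.05 there were 1302 genes with a higher level in SC (3.61%) and 612 with a lower level (1.7%), and 47.3% of all genes had a difference above 0. DESeq2, whose size factors put the median log2 difference of all genes at -0.20, against -0.03 in edgeR, turned that balance round, with 614 genes higher (1.7%) and 1338 lower (3.71%) at an unadjusted p under 0.05. List medians in edgeR are read against that -0.03, and lists whose median changes sign with the scaling are named. The individual gene values that follow are therefore measurements whose differences did not pass the main test, unless another test is named.

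The 10 protein-coding genes with the smallest p among those higher in SC and above a low-level limit all had their highest SC level in replicate 1 or 2, the shallow libraries. Cib2, a calcium and integrin binding protein (mm10 chr9:54544794-54560218), had a lowest, median and highest level of 0.562, 9.63 and 202 CPM in SC libraries, against 1.47, 8.99 and 14.7 CPM in SS libraries. The 202 CPM belonged to SC replicate 2, the next SC library had 23.0 CPM, and the other 7 SC libraries lay within the range of the SS libraries or below it. The fitted log2 difference was 2.03 ± 0.54 (SE; edgeR, adjusted p = 0.647), and it was 0.03 without SC replicates 1 and 2. Ccs, the copper chaperone of superoxide dismutase, was likewise highest in SC replicate 2, at 66.6 CPM, but all 9 SC libraries were above the SS mean and the difference was 0.81 without the 2 shallow libraries, against 1.27 ± 0.36 with them (SE; edgeR, adjusted p = 0.647).

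Fitting all 75 libraries of the series together called 40 of 39250 genes for the same contrast (0.102%), all higher in SC. The highest SC library was replicate 1 for 18 of these genes and replicate 2 for 20. Their median log2 difference was 2.64, and 0.17 for the same 40 genes in that fit without the 17 failing libraries of the series, which called 0 of 40533 genes (0%; 10.3% at an unadjusted p under 0.05). They included 12 pseudogenes and 11 protein-coding genes, Cib2 among them (edgeR, adjusted p = 0.0272).

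The immediate early genes, which neurons switch on within minutes of stimulation, are the group for which a cocaine challenge is usually read, and their differences in D2 nuclei were small beside the spread of the libraries. Fos had 3.59, 5.28 and 9.31 CPM as lowest, median and highest level in SC libraries, against 3.001, 5.70 and 9.05 CPM in SS libraries. The groups overlapped over nearly the whole range. The log2 difference of Fos was 0.31, with a 95% interval of -0.55 to 1.17, which holds both 0 and a change of 1. It comes from the fit, which uses edgeR's library scaling factors (TMM), while the CPM do not. These factors were lowest in SC replicates 3, 4 and 7 (0.584, 0.698 and 0.697) and SS replicate 9 (0.626). The fitted difference and the CPM medians therefore need not have the same sign. Fos rested on 14 to 156 counts per SC library and 16 to 132 per SS library. Egr1, a zinc finger factor of the same class, gave 0.25 ± 0.44, Arc, which encodes a synaptic capsid-like protein, gave -0.24 ± 0.41, and Npas4, a factor induced by calcium entry, gave -0.26 ± 0.34 (log2, SE). None of the 4 had an unadjusted p under 0.05.

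**Figure D2:**
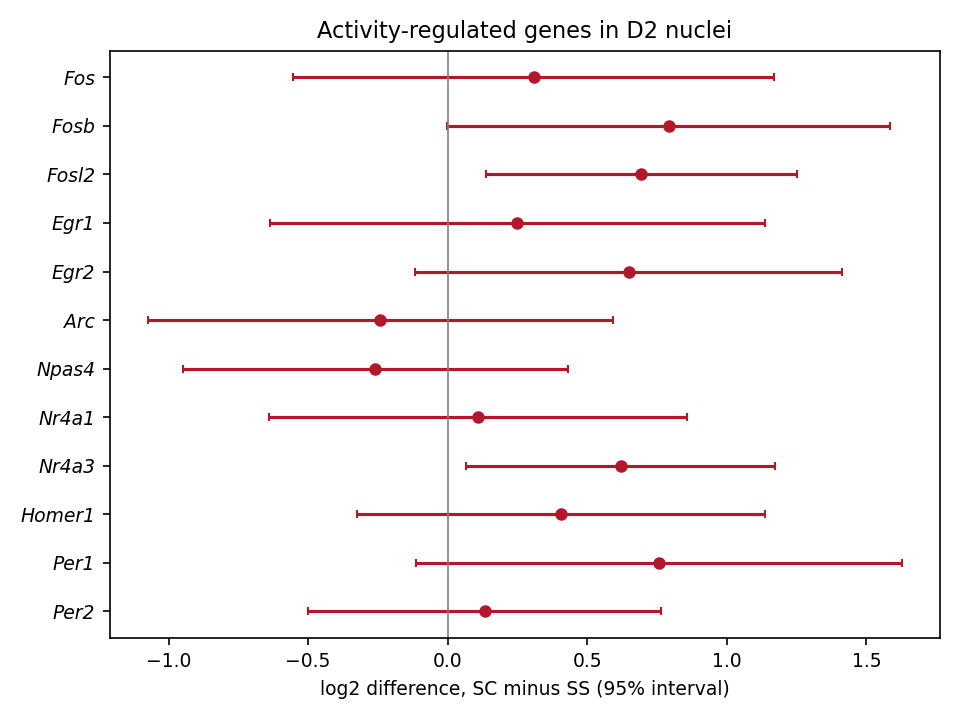
Log2 differences of 12 activity-regulated genes in D2 nuclei, SC minus SS, from the edgeR fit, with bars for the 95% interval. The intervals of Fosl2 and Nr4a3 lie above 0, at 0.14 to 1.25 and 0.07 to 1.17, and those of the other 10 genes reach or cross it.

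Nr4a3 and Fosl2 stood apart from the rest of that group. Nr4a3, an orphan nuclear receptor gene (mm10 chr4:48045153-48086447), had 39.8, 49.6 and 101 CPM in SC libraries, against 32.3, 36.6 and 63.4 CPM in SS libraries. In 8 of 9 SC libraries it was above the SS mean, and the SS library with the low background, replicate 9, was the highest of its group. The log2 difference was 0.62 ± 0.28 (SE; edgeR, unadjusted p = 0.0292, adjusted p = 0.939). Fosl2, an AP-1 subunit of the Fos family, had 21.5, 30.0 and 52.9 CPM in SC libraries, against 16.1, 22.5 and 29.6 CPM in SS libraries, a log2 difference of 0.69 ± 0.28 (SE; edgeR, unadjusted p = 0.0159, adjusted p = 0.923). These 2 were the only genes of the 22 tested on the list of rapid immediate early genes with an unadjusted p under 0.05. Of the 22, 16 had a difference above 0, and the list's median of 0.28 stood beside a median of -0.03 over all genes. SC replicate 2 was the highest SC library for both, and without SC replicates 1 and 2 no gene of the 23 then tested had an unadjusted p under 0.05, the list's median was 0.03, and Nr4a3 and Fosl2 were at 0.58 and 0.59.

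A limma fit that weights libraries by their scatter placed most of its weight on SC replicates 5, 6, 8 and 9 (3.25 to 7.53) and on SS replicates 2, 3, 5, 6 and 7 (3.61 to 6.37), and 0.141 to 0.353 on the low-background and shallow ones. It called 4892 of 36090 genes (13.6%), 1829 higher (5.07%) and 3063 lower (8.49%) in SC. In this fit 6 of the 22 rapid immediate early genes rose and 1 fell. Nr4a3 rose by 0.58 on the log2 scale (limma, adjusted p = 0.000495) and Fosl2 by 0.54 (limma, adjusted p = 0.00118). Egr2, a zinc finger factor, rose by 0.51 (limma, adjusted p = 0.00402) and Fosb, whose truncated product accumulates in striatum under repeated cocaine, rose by 0.39 (limma, adjusted p = 0.0253). Fos, Egr1, Arc and Npas4 did not pass there, at 0.16, -0.20, -0.06 and -0.28. Among libraries with a background share of 20% or more, the list's median in edgeR was 0.36 with the shallow SC libraries (6 SC and 8 SS libraries) and 0.07 without them (4 SC and 8 SS libraries), and in the last set Nr4a3 and Fosl2 were at 0.40 and 0.37.

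**Figure D3:**
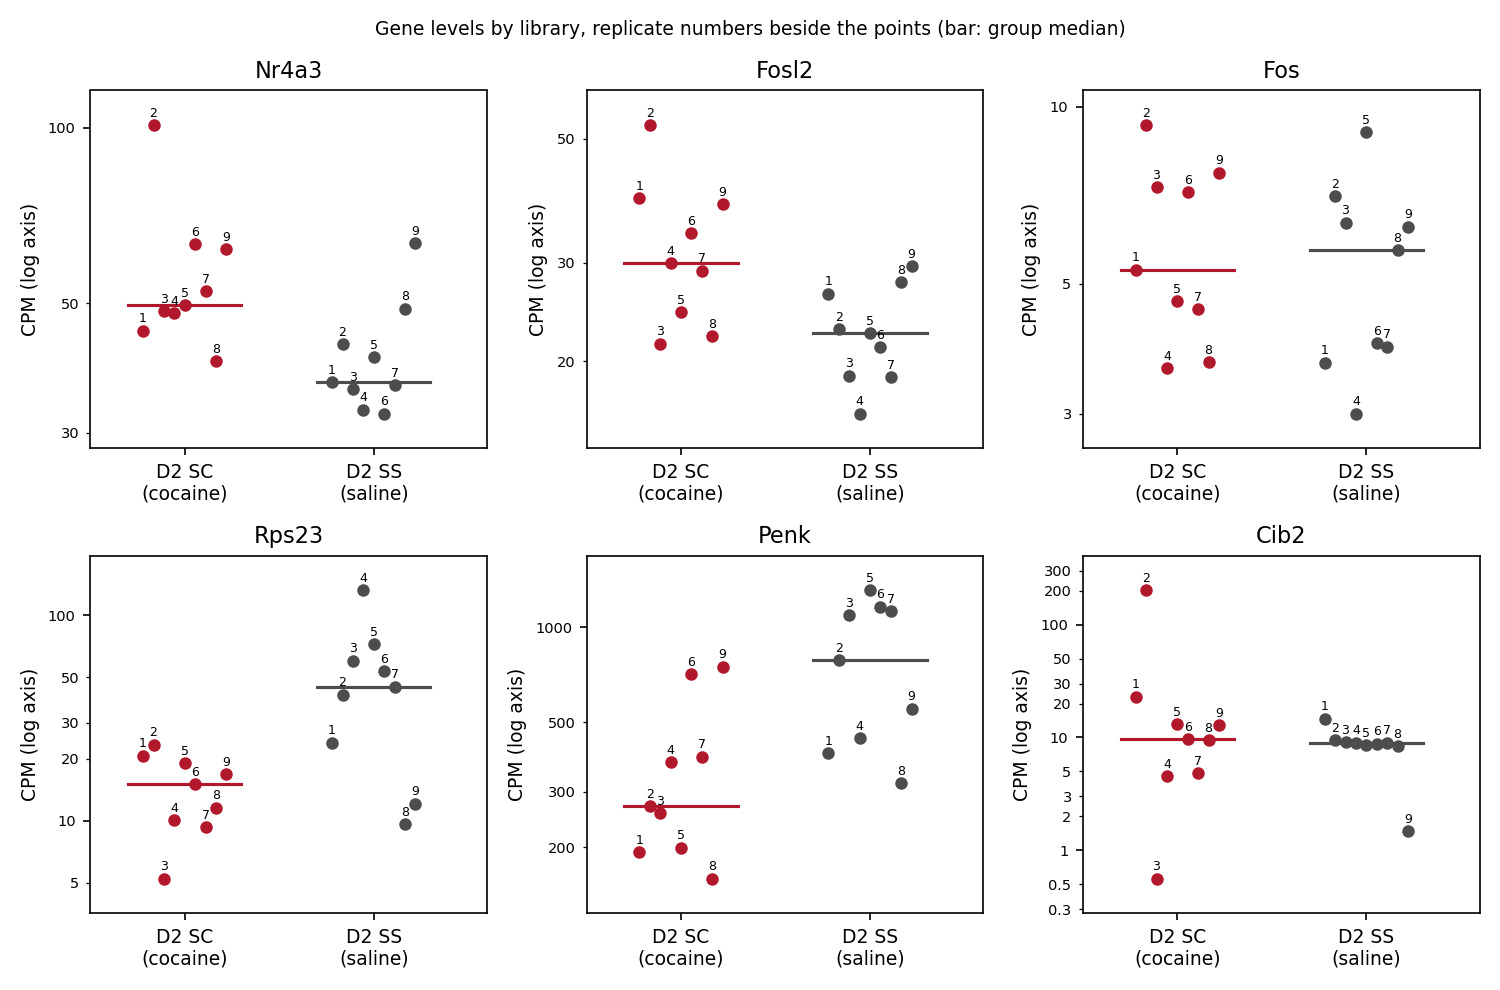
CPM of Nr4a3, Fosl2, Fos, Rps23, Penk and Cib2 in each of the 9 SC and 9 SS libraries on log axes, with replicate numbers beside the points and a bar at each group median. Rps23 lies between 5.24 and 23.5 CPM in SC libraries and reaches 133 CPM in SS libraries, while the SC value of 202 CPM for Cib2 comes from replicate 2.

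Ribosomal protein genes were lower in SC libraries in nearly every member tested. The 84 that were tested encode the structural proteins of the cytosolic ribosome, and their short, spliced messages are mostly held in the cytoplasm. Only 2 of the 84 had a difference above 0, 49 were lower in SC at an unadjusted p under 0.05 (1.7% of all genes were), and the list's median log2 difference was -0.90, against -0.03 over all genes. Rps23, of the small subunit (mm10 chr13:90922958-90924950), had 5.24, 15.1 and 23.5 CPM in SC libraries, against 9.63, 45.0 and 133 CPM in SS libraries. All 9 SC libraries were below the SS mean, and the SS libraries within the SC range were replicates 8 and 9. The log2 difference was -1.57 ± 0.46 (SE; edgeR, unadjusted p = 0.00124, adjusted p = 0.698). Rpl35, of the large subunit, had 1.13, 2.45 and 4.40 CPM in SC libraries, against 3.04, 8.99 and 20.1 CPM in SS libraries, a log2 difference of -1.54 ± 0.41 with an adjusted p of 0.647 (SE; edgeR). Rpl9 and Rpl19, also of the large subunit, gave -1.45 ± 0.40 and -1.42 ± 0.42.

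The start sites of ribosomal protein genes are known for a run of pyrimidines at which transcription begins, and they are shown for the 3 genes of lowest p that had 1 entry in the RefSeq promoter table (GRCm38.p6). Each line gives 20 bases before and 20 bases after the annotated start, on the gene's strand, with matches to CTTTC or CTTTT in capitals.
Rpl35 (chr2:39005112-39005151, minus strand): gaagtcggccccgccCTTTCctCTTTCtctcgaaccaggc
Rpl9 (chr5:65391412-65391451, minus strand): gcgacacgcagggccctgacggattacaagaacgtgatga
Rps23 (chr13:90923102-90923141, plus strand): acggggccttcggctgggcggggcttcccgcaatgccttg
Within 30 bases on either side of the start, one of these 5-letter motifs stood on the gene's strand in 29 of 74 ribosomal protein promoter entries (39.2%), against 4462 of 32851 entries of all genes (13.6%), and on the other strand in 14.9% and 13.7%. Only Rpl35 of the 3 shown had a match. The RefSeq start lay 13 bases inside the GENCODE start of Rpl9, 164 bases inside that of Rps23 and farther inside that of Rpl35, and a match is a description of the letters.

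The ribosomal protein difference was as large without the low-background and the shallow libraries. Summed over the list, the lowest, median and highest library had 675, 911 and 1314 CPM in SC, against 700, 1743 and 3881 CPM in SS. All 9 SC libraries were below the SS median and 6 SS libraries were above every SC library. Among the 4 SC and 8 SS libraries with a background share of 20% or more and no depth failure, 81 of the 84 genes were lower at an unadjusted p under 0.05 (7.05% of all genes were), with a list median of -1.29. The weighted limma fit called 81 of 84 lower (8.49% of all genes were), with a median of -1.14. Rps23 fell by 1.67 in that fit (limma, adjusted p = 8.92e-06). No adjusted p in edgeR passed in any of these sets of libraries.

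The level of Drd1, a receptor of the other class of medium spiny neuron, was higher in the SS libraries with more ribosomal protein RNA. The summed D1 markers were divided in that way except for SS replicate 1. The 6 SS libraries above every SC library in ribosomal protein CPM had 35.0 to 45.8 CPM of Drd1, and the other 3 SS libraries had 13.7 to 20.4 CPM. The SC libraries had a lowest, median and highest Drd1 level of 10.5, 17.5 and 66.4 CPM, and the highest of them, replicate 1, was also the highest SC library in ribosomal protein CPM. SC replicate 2 had the next highest ribosomal protein level, 1292 CPM, with 13.7 CPM of Drd1. The 7 D1 markers summed to 421, 289 and 133 CPM in SS replicates 1, 8 and 9, of low ribosomal protein level. Background shares of these libraries were 60.2%, 34.5% and 5.37%. In the 6 SS libraries of high level, at 40.4% to 61.2% background, the markers summed to between 400.2 and 490 CPM. SC replicates 3, 4 and 7, at 8.81% to 10.8% background, had sums of 106, 133 and 134 CPM. SC replicates 5, 6, 8 and 9, at 50.2% to 53.3% background, had sums of 475, 397, 394 and 402 CPM. Their ribosomal protein levels were 924, 911, 717 and 974 CPM. The part of the background in these sums was not tested. SC replicate 1 had the highest sum of the SC libraries, 589 CPM, while SC replicate 2 had 319 CPM, under the SC median of 394 CPM. Of the 7 markers, 3 had a difference above 0. The part of RNA from D1 neurons in the ribosomal protein difference was not tested. Ribosomal protein genes have many near-identical pseudogene copies, so how reads were divided among them is uncertain.

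Messages for other proteins of the mitochondrion and the cytosol were also described. Of 92 nuclear-encoded respiratory chain genes, 9 had a difference above 0 and 25 were lower in SC at an unadjusted p under 0.05 (1.7% of all genes were), with a median of -0.44. The weighted limma fit called 74 lower and none higher, against 8.49% and 5.07% of all genes. Uqcrq, a subunit of complex III, had 1.51, 5.76 and 14.2 CPM in SC libraries, against 6.08, 20.8 and 35.1 CPM in SS libraries, a log2 difference of -1.25 ± 0.41 (SE; edgeR, adjusted p = 0.834). Atp5mpl, a small protein of the ATP synthase, gave -1.33 ± 0.37 (SE; edgeR, adjusted p = 0.647). Every SC library was below the SS mean for both genes.

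Of 43 proteasome subunit genes, 14 had a difference above 0 and 2 were lower at an unadjusted p under 0.05, where 1.7% of all genes were. In the weighted limma fit 25 fell and 1 rose, against 8.49% and 5.07% of all genes. Psmb6, a catalytic subunit of the 20S core, gave -1.22 ± 0.41 in edgeR. Of 26 heat shock and chaperone genes, 12 fell and none rose in that fit, with the same shares over all genes, among them Hsp90aa1, the inducible cytosolic Hsp90, which fell by 1.23 (limma, adjusted p = 0.000392) and had 38.7, 116 and 209 CPM in SC libraries, against 65.8, 245 and 423 CPM in SS libraries. Tmsb4x, thymosin beta 4, which binds actin monomers, had 7.11, 14.0 and 21.3 CPM in SC libraries, against 7.73, 41.8 and 108 CPM in SS libraries, and fell by 1.59 in that fit (limma, adjusted p = 1.55e-05). Of the 32 actin and actin-binding genes, 15 fell and none rose in that fit, against 8.49% and 5.07% of all genes, while the list's median in edgeR over all libraries was -0.02, beside -0.03 over all genes.

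The markers of D2 medium spiny neurons did not move as 1 group. Drd2 itself had 386, 789 and 2805 CPM in SC libraries, against 265, 677 and 2177 CPM in SS libraries, and the 3 highest SC values were those of the low-background libraries. Its log2 difference was 0.81 ± 0.49 over all libraries and -0.04 among the 4 SC and 8 SS libraries with a background share of 20% or more (SE; edgeR). Penk (mm10 chr4:4133531-4138819) had 159, 271 and 749 CPM in SC libraries, against 320, 786 and 1313 CPM in SS libraries. Every SC library was below the SS mean, the highest SC level was under the SS median, and the log2 difference was -0.91 ± 0.49 (SE; edgeR, unadjusted p = 0.0685, adjusted p = 0.969). Penk overlaps another annotated gene.

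Some other transcripts of medium spiny neuron receptors and peptides lay on the same side as Penk. In edgeR over all libraries 3 of the 6 D2 markers tested, Drd2 among them, and 3 of the 7 D1 markers were above 0. Gpr6, an orphan receptor of D2 neurons, gave -0.93 ± 0.56, and Tac1, the substance P precursor typical of D1 neurons, -0.59 ± 0.36 (log2, SE; edgeR). In the weighted limma fit these fell, by 1.17 and 0.67, as did Penk, by 1.14 (limma, adjusted p = 0.00945), and Adora2a, by 0.91 (limma, adjusted p = 0.00682). Adora2a was at -0.22 ± 0.45 in edgeR over all libraries. Drd1 did not pass in either fit. The median of the 6 D2 markers was 0.07 over all libraries in edgeR and -0.20 with DESeq2, against -0.03 and -0.20 over all genes. In edgeR it was -0.45 among the libraries with a background share of 20% or more and -0.63 among the libraries with a background share of 20% or more and no depth failure.

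Signalling and synaptic genes, most of them long, were on the other side of 0 over all libraries. Of 30 dopamine receptor and cyclic AMP genes, 26 had a difference above 0 and 8 were higher at an unadjusted p under 0.05 (3.61% of all genes were). Pde4b, a phosphodiesterase that breaks down cyclic AMP, had 782, 952 and 2492 CPM in SC libraries, against 567, 822 and 1927 CPM in SS libraries, a log2 difference of 0.78 ± 0.39 (SE; edgeR, adjusted p = 0.941). Pde10a, the phosphodiesterase enriched in medium spiny neurons, gave 0.74 ± 0.40. Drd3, a dopamine receptor of the D2 family, had 47.1, 56.2 and 116 CPM in SC libraries, against 45.7, 51.7 and 65.7 CPM in SS libraries, a difference of 0.49 ± 0.21. Grm4, a presynaptic metabotropic glutamate receptor, gave 0.79 ± 0.29, and Dlgap3, a scaffold of striatal synapses, 0.92 ± 0.34 (log2, SE; edgeR). Cacna1a, the pore of P/Q-type calcium channels, gave 0.76 ± 0.27, and Kcnn3, a calcium-activated potassium channel, 0.74 ± 0.29. Cdh4, a cadherin, was above the SS mean in all 9 SC libraries, at 0.63 ± 0.20 (SE; edgeR, unadjusted p = 0.00251, adjusted p = 0.776), and Ephb1, a receptor for ephrins, gave 0.44 ± 0.18.

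The list medians were near 0 when the low-background and the shallow libraries were left out, while single genes kept part of their difference. The median of the cyclic AMP list was 0.35 over all libraries and 0.03 among the 4 SC and 8 SS libraries with a background share of 20% or more and no depth failure. The corresponding medians were 0.44 and 0.01 for the 28 postsynaptic scaffold and adhesion genes, 0.37 and 0.04 for the 40 sodium and calcium channel genes, and 0.29 and 0.06 for the 72 axon guidance genes. For single genes the same set of libraries gave values from 0.06 for Pde4b up to 0.40 for Grm4, with 0.17 for Pde10a, 0.16 for Drd3, 0.24 for Cacna1a and 0.25 for Cdh4. The weighted limma fit, in which the low-background libraries had little weight, called Drd3, Grm4, Dlgap3, Cacna1a, Kcnn3, Ephb1 and Cdh4 higher, at 0.28, 0.54, 0.44, 0.40, 0.40, 0.30 and 0.36, and did not call Pde4b or Pde10a. The list of 72 axon guidance genes had 11 rises and 2 falls in that fit, and the list of 40 sodium and calcium channel genes had 10 and 3, where 5.07% of all genes rose and 8.49% fell.

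**Figure D4:**
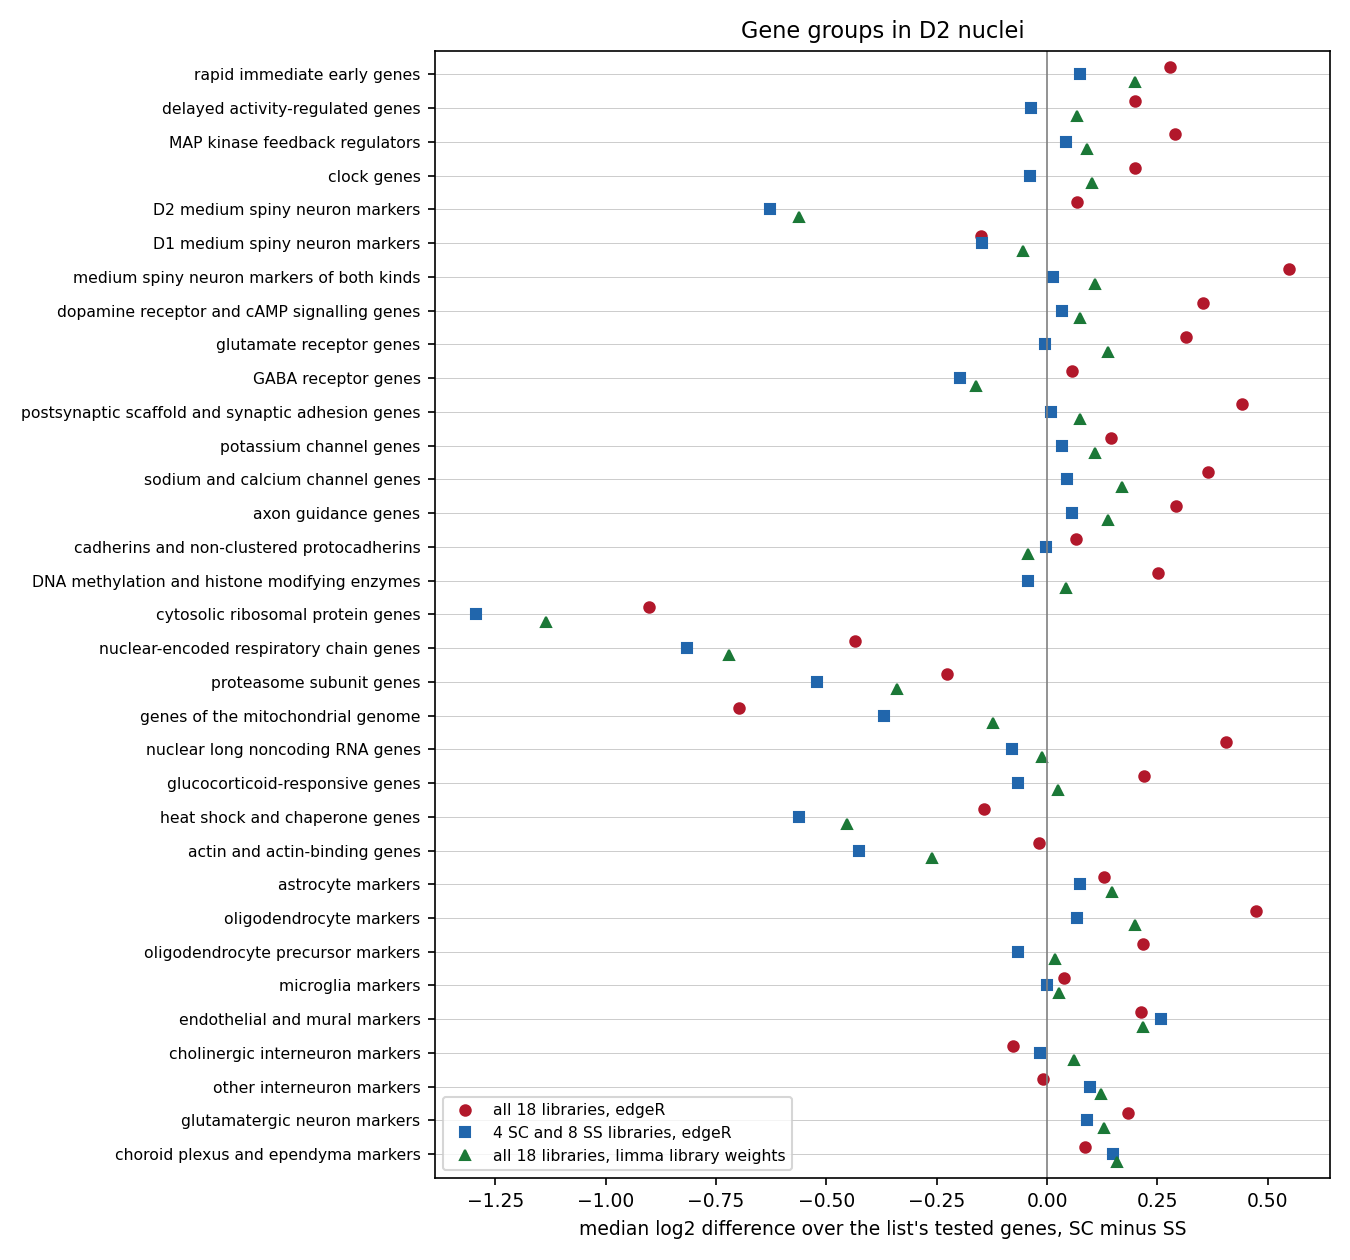
Median log2 difference, SC minus SS, over the tested genes of each list, for edgeR on all libraries, edgeR on the 4 SC and 8 SS libraries with a background share of 20% or more and no depth failure, and limma with library weights. The ribosomal protein list lies at -0.90, -1.29 and -1.14, and most neuronal lists lie near 0 in the restricted set.

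Differences also varied with gene length. Over all libraries the median log2 difference was -0.19 for genes under 1 kb and 0.24 for genes over 300 kb, with 75.98% of the 612 longest genes above 0. Among the libraries with a background share of 20% or more, the shallow ones included, the medians were -0.08 and 0.13, and with the background share as a covariate they were -0.15 and 0.18. In the restricted set, without the shallow libraries, they were -0.10 and 0.02. Genes over 100 kb took 55.1% ± 4.90 of counts in SC and 51.4% ± 4.52 in SS libraries (SD, n = 9 each; exact permutation test, two-sided, p = 0.114, adjusted p = 0.514 over 6 measures).

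**Figure D5:**
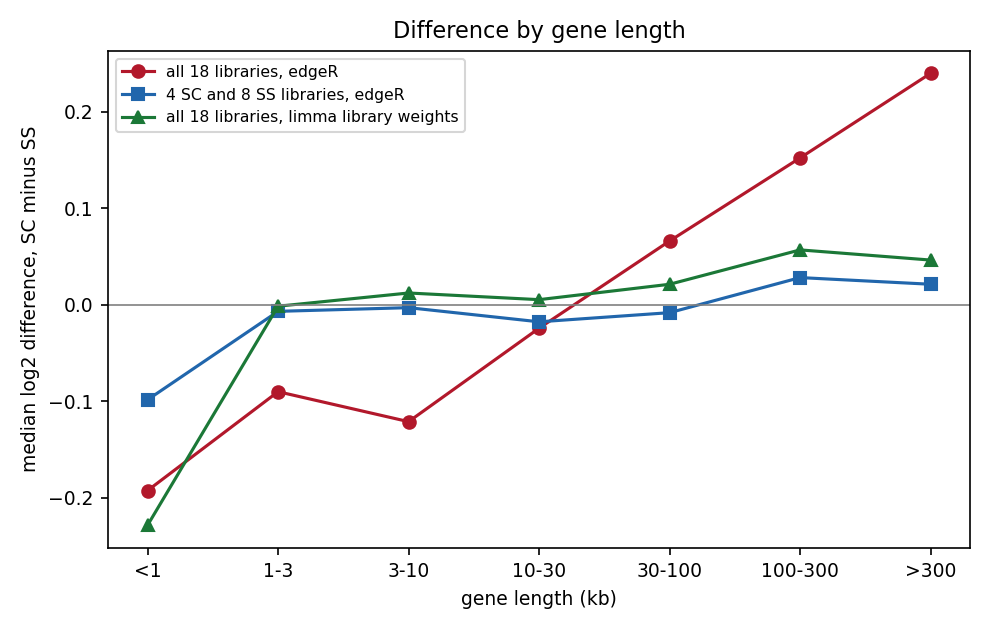
Median log2 difference, SC minus SS, in 7 classes of gene length, for the same 3 analyses. Over all 18 libraries the line climbs with length from the class of 3 to 10 kb upward, and it is nearly flat above 1 kb in the restricted set and in the weighted fit.

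Genes of the circadian clock and of chromatin were described in the same way. Of 19 clock genes, 15 had a difference above 0 and 4 were higher at an unadjusted p under 0.05 (3.61% of all genes were). The list's median was 0.20 in edgeR over all libraries and 0.01 with DESeq2, where the medians over all genes were -0.03 and -0.20. The clock list was at -0.0057 with the background share as a covariate and -0.04 in the restricted set. Over all genes these settings gave 0.04 and -0.01. Arntl, which encodes the BMAL1 activator of the clock, had 79.4, 105 and 154 CPM in SC libraries, against 72.0, 85.2 and 106 CPM in SS libraries, a log2 difference of 0.65 ± 0.25 (SE; edgeR, adjusted p = 0.899), and was at 0.09 in the restricted set. Rora, a nuclear receptor of the clock's second loop, gave 0.75 ± 0.33, and 0.26 in the restricted set. Per1, a clock gene that is also induced by cyclic AMP, gave 0.76 ± 0.43 and reached 162 CPM in SC replicate 2, with 61.6 CPM in the next SC library. Per2, its paralogue, gave 0.13 ± 0.31 in edgeR and rose by 0.36 in the weighted limma fit (limma, adjusted p = 0.0263). Of 95 enzymes of DNA methylation and histone modification, 79 had a difference above 0, with a median of 0.25, and of -0.04 in the restricted set. Tet3, which oxidises methylcytosine, had 82.6, 124 and 189 CPM in SC libraries, against 61.7, 88.3 and 109 CPM in SS libraries, a difference of 0.68 ± 0.25 (SE; edgeR, adjusted p = 0.848), and rose by 0.38 in the weighted limma fit (limma, adjusted p = 0.00537).

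Nuclear long noncoding RNAs also depended on the set of libraries. Of 16 such genes, 15 had a difference above 0, with a median of 0.40, and of -0.08 in the restricted set. Neat1, the scaffold of paraspeckles, had 8.08, 23.4 and 67.6 CPM in SC libraries, against 10.3, 12.9 and 24.6 CPM in SS libraries. It was above the SS mean in 8 of 9 SC libraries and the difference was 1.11 ± 0.38 (SE; edgeR, unadjusted p = 0.00529, adjusted p = 0.834). It was at 0.45 in the restricted set and rose by 0.80 in the weighted limma fit (limma, adjusted p = 0.000102). Meg3, an imprinted noncoding RNA, gave 1.01 ± 0.48 and rose by 0.71 in the weighted fit (limma, adjusted p = 0.0378). Malat1, the RNA of nuclear speckles, gave 0.37 ± 0.35 over all libraries and -0.19 in the restricted set. All 3 overlap another annotated gene, and whether the counting used strand is not given in the sources used here.

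Of 18 genes of the glucocorticoid response, 11 had a difference above 0, and 4 rose and 2 fell in the weighted limma fit, where 5.07% of all genes rose and 8.49% fell. Fkbp5, a chaperone of the glucocorticoid receptor and one of its targets, had 35.4, 71.4 and 90.8 CPM in SC libraries, against 50.6, 61.2 and 76.3 CPM in SS libraries. Its difference was 0.29 ± 0.30 in edgeR, and it rose by 0.41 in the weighted fit (limma, adjusted p = 0.000227). Homer1, a synaptic scaffold with an activity-induced short form, gave 0.41 ± 0.36, and Spred2, a feedback inhibitor of the MAP kinase pathway, gave 0.55 ± 0.36, and neither passed in either fit.

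Transcripts of the mitochondrial genome were all below 0 over all libraries, for 13 of 13 genes tested, with a median of -0.70. The sign of the difference in their mean share of counts turned on 1 library. SS replicate 4 held 1.77% of its counts in these genes and the next SS library 0.287%. The highest SC shares were those of the shallow replicates 1 and 2, at 0.735% and 0.539%. mt-Co1, a subunit of cytochrome oxidase, had 2.06, 59.9 and 208 CPM in SC libraries, against 7.17, 94.3 and 780 CPM in SS libraries, the 780 CPM being that of SS replicate 4. The share averaged 0.237% ± 0.262 in SC and 0.326% ± 0.551 in SS libraries (SD, n = 9 each; exact permutation test, two-sided, p = 0.806), and without SS replicate 4 the difference in share changed sign.

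Markers of oligodendrocytes, of their precursors and of astrocytes were highest in the 2 shallow SC libraries and in SS replicate 4. The astrocyte markers summed to 836 and 856 CPM in SC replicates 1 and 2 and to 962 CPM in SS replicate 4. Not every class did so, and the microglia markers were highest in SC replicate 5 (141 CPM summed) and SS replicate 1 (136 CPM). The background shares of these libraries were 53.3% and 60.2%. Microglia sums were lowest in the low-background SC replicates 3, 4 and 7 (65.9, 76.3 and 77.7 CPM) and SS replicate 9 (61.0 CPM). The part of the background in these sums was not tested. The 6 oligodendrocyte markers summed to a lowest, median and highest level of 93.6, 201 and 998 CPM in SC libraries, against 82.9, 183 and 1104 CPM in SS libraries. Olig1, a factor of the oligodendrocyte lineage, was at 87.5 and 67.1 CPM in SC replicates 1 and 2, against 15.4 CPM at most in SS libraries, and its medians were 1.94 CPM in SC and 2.09 CPM in SS libraries. Its difference of 2.75 in edgeR became -0.40 without the 2 shallow libraries. Sst, the somatostatin gene of interneurons, had 3.56, 11.7 and 17.6 CPM in SC libraries, against 8.99, 19.0 and 91.5 CPM in SS libraries, and fell by 0.83 in the weighted limma fit (limma, adjusted p = 0.0286), with -1.53 ± 0.46 in edgeR. Whether these cells have a part in the differences of other lists was not tested.

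Separation of the groups without overlap was rare. A single gene, Phyhd1 (0.00277% of those tested), had every SC library above every SS library, at 9.02, 9.80 and 10.9 CPM in SC libraries, against 5.97, 6.97 and 8.27 CPM in SS libraries. In 6 genes (0.0166%), Rpl37a, Isca2, Gfer, Taf7, Zfp943 and Gm10221, every SC library was below every SS library. Overlap was judged on CPM, without the library scaling factors of the fits. With those factors the log2 differences of the 6 genes in edgeR ran from -1.73 for Gm10221 to -0.08 for Zfp943. Rpl37a, of the large ribosomal subunit, had 0, 3.26 and 4.305 CPM in SC, against 4.307, 5.67 and 11.2 CPM in SS libraries, so that the groups were divided by a small margin. These genes were named after their values were seen, and none passed in edgeR (adjusted p = 0.911 for Phyhd1 and 0.973 for Rpl37a). In the weighted limma fit Phyhd1 rose by 0.51 (limma, adjusted p = 0.000209) and Rpl37a fell by 0.87 (limma, adjusted p = 0.000279).

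The same cocaine challenge was also given to D2-line mice with 10 days of cocaine behind them (10 CC libraries) and compared with a saline challenge after that history (10 CS libraries). Of these, 2 CC and 5 CS libraries failed the quality rule, and 1 CC and 2 CS libraries held under 100000 counts each. The test of the difference between the challenge responses, (CC minus CS) minus (SC minus SS), called 0 of 36090 genes (0%), and 2146 had an unadjusted p under 0.05 (5.95%), 265 above 0 (0.734%) and 1881 below 0 (5.21%). Fos was at -0.97 ± 0.44 for CC minus CS beside 0.31 ± 0.43 for SC minus SS, and the difference between them was -1.27, with a 95% interval of -2.51 to -0.04 (edgeR, adjusted p = 0.828). Without the failing D2 libraries Fos was at -0.22 ± 0.43 for CC minus CS beside 0.26 ± 0.38 for SC minus SS, and the interval of the difference, -1.65 to 0.69, held 0. Fosl2 was at -0.13 ± 0.28 beside 0.69 ± 0.28, Per1 at -0.79 ± 0.43 beside 0.76 ± 0.43, and Rps23 at -0.43 ± 0.45 beside -1.57 ± 0.46 (log2, SE). Without the failing libraries Per1 was at -0.37 beside 0.47 and Rps23 at -0.98 beside -1.78. Across the 36090 genes, which are not independent, Pearson's r between these responses was 0.02.

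The first challenge was also given to mice with D1-Cre and the same reporter, after the same saline history (9 SC against 10 SS libraries). The receptor genes go against the line label in part of these libraries: Drd2 was above Drd1 in 6 of the 9 libraries labelled D1_SC and in 2 of the 10 labelled D1_SS. Background shares had a lowest, median and highest value of 5.65%, 17.8% and 59.2% in the libraries labelled D1_SC, against 28.6%, 45.1% and 61.0% in those labelled D1_SS, and the part of either in the D1 values was not tested. In the fit of all 75 libraries it called 40 of 39250 genes in D2 nuclei, against 3537 (9.01%) in the libraries labelled D1, and after removal of the libraries that failed on quality, among them 2 D2_SC and 3 D1_SC libraries, it called 0 in D2 and 12 in the libraries labelled D1 (0.0296% of 40533). Nr4a3 was at 0.66 ± 0.34 in D2 nuclei and rose by 1.56 in the libraries labelled D1 (edgeR, adjusted p = 0.00205), and Fosl2 was at 0.74 ± 0.31 in D2 nuclei and rose by 1.19 in the libraries labelled D1 (edgeR, adjusted p = 0.00717). Drd3 was at 0.53 ± 0.25 in D2 nuclei and rose by 1.41 in the libraries labelled D1 (edgeR, adjusted p = 0.000184). Without the failing libraries Nr4a3 and Drd3 still passed in the libraries labelled D1, at 1.43 and 1.11 (edgeR, adjusted p = 0.0349 for both), and Fosl2 did not, at 1.05 (adjusted p = 0.066). The test of the difference between lines did not pass for any of these, with adjusted p = 0.967 for Nr4a3 and for Fosl2 and 0.743 for Drd3 in edgeR. It called 11 genes (0.028%), all with a lower SC minus SS difference in D2 nuclei than in the libraries labelled D1. The count was 0 with DESeq2 and 0 without the failing libraries. The 11 were led by genes of low level such as Guca2b, which encodes a guanylin-family peptide. Guca2b lay at 0, 0.816 and 9.80 CPM in D2 SC, against 0, 1.57 and 4.88 CPM in D2 SS libraries. Fos differed between lines by -0.13, with a 95% interval of -1.41 to 1.14. Across the 39250 genes, again not independent, r between the D2 response and that of the libraries labelled D1 was 0.50.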

How the data were processed

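The authors deposited whole-number read counts for 55401 gene identifiers in 75 libraries, made with featureCounts on mm10 per the submitters' processing notes. No aligner, annotation, strand setting or tool version is given in the sources used here. The FPKM values the authors deposited use lengths equal to the full gene span of GENCODE M21 for 54271 of 54271 genes compared, so introns count, and they served only to read these lengths. Symbols and positions come from GENCODE M21 (mm10), with 55141 identifiers matched. Values of genes that overlap another gene or have near-identical copies are uncertain, since the strand setting is not given.

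Counts were tested with edgeR 4.0.16 (quasi-likelihood, TMM, filterByExpr by group) on 38 D2 libraries in 4 groups, with Benjamini-Hochberg adjustment over 36090 genes and a threshold of 0.05. A fit of 75 libraries in 8 groups (39250 genes) compared the D2 and D1 lines. DESeq2 1.42.0 and limma 3.58.1 (library weights) were alternatives. The scripts were tested on simulated data. SE was obtained from the log2 difference and the test statistic, and p-values are two-sided. CPM are counts scaled to a library total of 1000000, without the TMM factors that the fits use. The background share multiplies counts per base in receptor genes by the summed length of all genes. A library failed the quality rule on total count (under the line's median divided by 3), genes detected, correlation to its line or Drd1 to Drd2 ratio. Library measures were compared by exact permutation tests.

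Named genes were fixed markers, the 10 with the smallest p in each direction among protein-coding genes whose mean level was at least 1 in log2 CPM, up to 4 per list by p, and genes that passed between histories or lines; the text gives a part of them. The members, lists and tests were chosen with earlier results of these data known. The restriction to libraries with a background share of 20% or more, the limma fits on fewer libraries and the use of the 75-library fit for the D2 contrast were chosen after seeing the data. No 2 libraries were identical. Same-numbered libraries were treated as unpaired, and the labels do not say whether the numbers mark a shared batch. Of 9 pairs of deviations, 3 correlated above 0.1, with values from -0.72 to 0.62, which cannot settle it.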

Additional observations from a re-analysis of the deposited data

Results flagged for a closer look

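In all, 120 groups of 9 libraries were examined (named genes and library measures). In 31 of them 1 library was set apart from the rest by a gap of more than 0.493 of the group's range (Dixon's test). That limit is passed by about 1 in 20 groups of independent, normally distributed values. The groups share the same libraries, and some genes were named for a small p, so the 31 cannot be set against that rate. SS replicate 9, with the background share of 5.37% (34.5% in the next SS library), was the highest of its group for Drd2 (2177 CPM), Nr4a1 (69.9), Homer1 (538), Per1 (84.6), Rora (1639), Pde10a (2606), Dlgap3 (181), Meg3 (3393) and Malat1 (8593), and the lowest for Cib2 (1.47) and Zbtb16 (16.7).

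SS replicate 4, with 1.77% of counts in the mitochondrial genome, was the highest for Rpl19 (103 CPM), mt-Co1 (780), Olig1 (15.4), Mt1 (35.3) and Guca2b (4.88) and the lowest for Npas4 (4.31).

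Among SC libraries, the shallow replicate 2 was the highest for Egr2 (22.5 CPM), Nr4a3 (101), Per1 (162), Drd3 (116), Cib2 (202), Ccs (66.6) and Guca2b (9.80) and the lowest for Rpl37a (0). The shallow replicate 1 was the highest for Drd1 (66.4) and Fosb (18.1). Replicate 3, of low background, was the highest for Cdh4 (478) and Neat1 (67.6).

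The response to the first challenge differed between the lines for 11 genes by the test of the difference itself, in edgeR, and Guca2b was the one named, at -5.36 for D2 minus D1. Its D2 difference was 0.16 ± 0.54 (log2, SE). The count of 11 genes became 0 with DESeq2 and 0 without the failing libraries.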

How the results depend on the processing

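The count of 0 genes was the same under 30 alternatives, among them RLE and TMMwsp scaling, other count filters, DESeq2, background subtraction, the background share as a covariate and leaving out each library in turn. The limma fits with library weights called 4892 genes, 4703 with SC and SS libraries only and 4511 without the failing libraries, and the 75-library fit called 40. With the replicate number as a block, 0 genes were called. Of the 9 SC libraries, 0 correlated best with the SS library of their number, and whether the numbers mark a shared batch is not known. The difference between histories stayed at 0 genes under all 5 alternatives run, the block included. The 11 genes that differed between lines became 0 with DESeq2, 1 with RLE scaling, 0 without the failing libraries and 7 with the background covariate.

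The difference in total count was 2795768 without the failing libraries, against -263840 with them, and lay between -1357676 and 1112930 when single libraries were left out. That of the mitochondrial share lay between -0.152% and 0.0914%.

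Of the list medians, RLE scaling and DESeq2 moved those of potassium channels to -0.044 and -0.045, of axon guidance genes to 0.098 and 0.098 and of cadherins to -0.13 and -0.13. The median over all genes moved with them, from -0.03 in the main fit to -0.20 under both. Background subtraction moved that of microglia markers to 0.61. Libraries with a background share of 20% or more and no failure moved axon guidance to 0.057, actin genes to -0.43 and D2 markers to -0.63.

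Some named genes changed sign. In the libraries with a background share of 20% or more, Drd2 was at -0.075, and without failing libraries Drd2 was at -0.040, Egr1 at -0.30, Homer1 at -0.093, Malat1 at -0.19, Olig1 at -0.052 and Guca2b at -0.14. Without the failing libraries of the D2 line, Adora2a was at 0.012, Egr1 at -0.11, Olig1 at -0.40 and Guca2b at -0.39. Malat1 was at -0.030 and Per2 at -0.0057 with the background covariate, and mt-Co1 at 0.16 and Guca2b at -0.17 with the replicate block. The limma fits gave Egr1 at -0.20, -0.18 and -0.19, Malat1 at -0.051, -0.031 and -0.029, and Olig1 at -0.0099 (no failing library). Leaving out single libraries gave -0.37 to 0.055 for Arc, -1.13 to 0.36 for mt-Co1 and -0.51 to 0.49 for Guca2b. The cause of these shifts was not tested. Early genes of few counts limit the precision of their differences.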

Other observations

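GABA receptor genes, which mediate inhibition onto medium spiny neurons, and stress-responsive genes held differences beside those described. In the weighted limma fit 5 of 21 GABA receptor genes fell and 1 rose, against 8.49% and 5.07% of all genes. The list's median was 0.06 in edgeR and -0.11 with DESeq2, where the medians over all genes were -0.03 and -0.20. Mt1, a metallothionein induced by glucocorticoids and metals, had a lowest, median and highest level of 1.12, 4.41 and 9.31 CPM in SC libraries, against 3.04, 8.16 and 35.3 CPM in SS libraries, and fell by 1.07 in the weighted fit (limma, adjusted p = 0.0022). Zbtb16, a zinc finger gene induced through the glucocorticoid receptor, had 32.0, 121 and 267 CPM in SC libraries, against 16.7, 91.9 and 130 CPM in SS libraries, and rose by 0.43 (limma, adjusted p = 0.00753). Neither gene passed in edgeR over all libraries.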
